A study of Homo sapiens with 60 samples.

Results

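The proteasome subunit genes described here are 34 genes listed as constitutive subunits of the 20S core particle and the 19S regulatory particle, the cap. They were found in the count table by Ensembl identifier and symbol, out of 60675 genes listed: 14 genes of the core (PSMA1 to PSMA7 and PSMB1 to PSMB7) and 20 genes of the cap (PSMC1 to PSMC6 and PSMD1 to PSMD14). Among these PSMD5, PSMD9 and PSMD10 encode assembly chaperones that are absent from the finished particle, and they are counted with the cap genes. All 34 passed the filter on low counts, which 19366 genes passed. Levels are CPM, a gene's count scaled to a fixed library size, after TMM scaling, which corrects each library's total for differences in composition.

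The proteasome degrades proteins that carry ubiquitin chains. Its core is a barrel of stacked rings, in which the alpha subunits form the gated entrance and the beta subunits PSMB5, PSMB6 and PSMB7 carry the chymotrypsin-like, caspase-like and trypsin-like active sites. The cap binds ubiquitin chains, removes them, unfolds the substrate with a ring of ATPases and feeds it into the barrel. Cells whose proteasomes are inhibited are known to raise most subunit genes together, through the transcription factor NFE2L1, which is processed by DDI2 and NGLY1. The genes are expressed in nearly every cell type, glial tumour cells included.

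The cells were SW1783, an established human astrocytoma line, exposed for 24 h to dried ethanol extracts of 4 herbs (Polygalae Radix, Aucklandiae Radix, Menthae Herba and Saposhnikoviae Radix) or 4 multi-herb formulas (Guibi-tang, Saengmaek-san, Okbyeongpung-san and Soyo-san). Guibi-tang is traditionally prepared with Polygalae Radix and Aucklandiae Radix among its ingredients. Polygalae Radix was used at a high dose of 30 µg/mL, a medium dose of 6 and a low dose of 1.2. Aucklandiae Radix was used at 160, 32 and 6.4 µg/mL, and each of the other 6 at 500, 100 and 20. Where the concentration that inhibits growth by 20% lay under 500 µg/mL, the study used that concentration as its high dose. The controls received DMSO alone, given as 0.1% in the sample records and as 2% in the series description. There were 60 libraries in 25 groups: 13 groups of 3 libraries, 9 of 2 and 3 of 1, the latter being the 3 doses of Okbyeongpung-san. There were 2 libraries a dose for Soyo-san, Polygalae Radix and Aucklandiae Radix, and 3 for vehicle and the rest. The sources do not say that replicates were separate cultures, so a p-value measures only the spread between these libraries, which may be technical.

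Library totals ranged from 19031094 to 37686975 counts. The library names fall into 5 sets: vehicle alone, Polygalae Radix with Aucklandiae Radix, Menthae Herba with Saposhnikoviae Radix, Saengmaek-san with Guibi-tang, and Soyo-san with Okbyeongpung-san. Set and extract cannot be told apart against vehicle, whereas a high dose against a low dose, or against its set partner, is a comparison within a set. In 10 libraries the change from vehicle fell with transcript length, with a slope under -0.15 log2 units per doubling of length. They included Menthae Herba high replicate 3, Saposhnikoviae Radix high replicate 2, Saengmaek-san high replicate 1 and the Okbyeongpung-san high library, and none from the high doses of Polygalae Radix or Guibi-tang. VIM, CD44, SOX9 and SLC1A3 were present, while the astrocyte markers GFAP, S100B, AQP4, ALDH1L1 and SOX2 were at or near 0 in these libraries. The summed level of 12 glia and glioma markers was 8219 CPM in vehicle, 1540 CPM at high Polygalae Radix and 1887 CPM at high Guibi-tang, while the summed levels of 4 epithelial (131, 16.21 and 15.16 CPM), 4 neuronal (55.48, 22.5 and 27.71 CPM) and 5 leukocyte markers (10.62, 2.073 and 0.9812 CPM) were also lower. The part of these markers in the results was not tested. In bulk RNA, fewer cells of a kind and less RNA per cell cannot be told apart.

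In vehicle the level of the 34 genes per length was higher for the median core gene than for the median cap gene. Per kilobase of principal transcript, the median was 101.1 CPM over the 14 core genes and 54.02 CPM over the 20 cap genes. PSMD2, a scaffold of the cap's base, was highest at 246.2 CPM per kilobase, and PSMA7, an alpha ring subunit, reached 183.8. The lowest was PSMD9, a chaperone that helps assemble the base, at 10.9 CPM per kilobase. These levels use the length of each gene's principal transcript. By another measure, the median length of a gene's coding transcripts, which also enters the length slope, the middle value was 889.5 bases over core genes, 1343.5 over cap genes and 1856 over all tested coding genes. PSMA1, PSMA2, PSMA6, PSMC1, PSMD6, PSMD7 and PSMD9 had fractional estimated counts in nearly all libraries, so some of their reads were shared with other loci and their levels are less certain.

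Promoter sequences were taken from RefSeq (GRCh38.p14) for 29 of the 34 genes, as the 250 bases before the annotated start. Windows were searched on both strands for TGACNNNGC and TGAGNNNGC, the letters of antioxidant response elements, which bind NFE2L1 and NFE2L2, and for the CCAAT box. There are 5 windows printed, chosen after the values were seen: PSMD1, PSMB3 and PSMD3 fell with both Polygalae Radix and Guibi-tang at the high dose, whereas PSMC6 and PSMB5 did not pass the test with Guibi-tang in the model of all groups. They lie at chr2:231056617-231056866 (plus strand, PSMD1), chr17:38752491-38752740 (plus strand, PSMB3), chr17:39980557-39980806 (plus strand, PSMD3), chr14:52706950-52707199 (plus strand, PSMC6) and chr14:23035221-23035470 (minus strand, PSMB5). Capitals mark the element letters or the CCAAT box on either strand.
PSMD1: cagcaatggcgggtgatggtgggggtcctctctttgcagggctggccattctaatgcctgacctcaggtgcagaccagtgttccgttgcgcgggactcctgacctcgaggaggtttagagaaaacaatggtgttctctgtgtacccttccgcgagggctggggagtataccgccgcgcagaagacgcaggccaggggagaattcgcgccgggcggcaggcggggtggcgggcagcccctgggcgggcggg
PSMB3: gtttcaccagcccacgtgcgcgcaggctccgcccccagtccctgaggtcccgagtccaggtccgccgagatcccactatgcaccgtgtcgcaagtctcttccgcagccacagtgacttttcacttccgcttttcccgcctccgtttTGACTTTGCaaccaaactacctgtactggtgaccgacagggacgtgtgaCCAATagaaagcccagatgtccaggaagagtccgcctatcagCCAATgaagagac
PSMD3: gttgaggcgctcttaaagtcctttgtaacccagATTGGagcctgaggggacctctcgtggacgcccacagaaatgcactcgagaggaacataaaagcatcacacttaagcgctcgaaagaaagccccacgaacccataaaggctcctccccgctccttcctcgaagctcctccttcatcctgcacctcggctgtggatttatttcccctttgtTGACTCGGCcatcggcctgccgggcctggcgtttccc
PSMC6: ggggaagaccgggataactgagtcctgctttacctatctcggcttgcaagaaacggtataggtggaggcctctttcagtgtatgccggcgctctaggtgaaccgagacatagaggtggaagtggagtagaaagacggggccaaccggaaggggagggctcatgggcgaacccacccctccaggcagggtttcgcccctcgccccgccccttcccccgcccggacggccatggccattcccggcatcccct
PSMB5: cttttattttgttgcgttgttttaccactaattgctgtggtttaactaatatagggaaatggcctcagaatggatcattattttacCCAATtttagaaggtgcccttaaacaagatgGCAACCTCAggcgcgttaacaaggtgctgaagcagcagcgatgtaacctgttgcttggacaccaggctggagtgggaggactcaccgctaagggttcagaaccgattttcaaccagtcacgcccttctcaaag

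PSMB3 and PSMD3 hold the TGACNNNGC letters and a CCAAT box, PSMB5 holds TGAGNNNGC and a CCAAT box, and PSMD1 and PSMC6 hold neither within these 250 bases. TGACNNNGC occurred in 5 of the 29 windows (17.2%), against 11.0% of 27305 RefSeq windows of the same length, and TGAGNNNGC in 8 (27.6%) against 14.8%. The CCAAT box occurred in 14 windows (48.3%) against 33.0%. GGGCGG, the core of an SP1 site, occurred in 19 windows (65.5%) against 42.3%. CCGGAAG, the core of an ETS site, occurred in 7 windows (24.1%) against 8.82%. These were 7 of the 19 cap windows and 0 of the 10 core windows, a difference that was not tested. No window was available for PSMA7, PSMB1, PSMB6 and PSMB7 of the core or PSMD4 of the cap. The median GC content was 60.8% in the members' windows and 58.0% over all windows. In 26 of the 29 windows the bases just after the annotated start were found in a transcript of the gene. The exceptions, PSMA5, PSMD8 and PSMD14, are among the 8 with TGAGNNNGC. Some windows, such as those of PSMA1, PSMC2 and PSMD14, lie wholly inside the annotated gene. A match is a description of letters in a window and no evidence of binding.

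Most proteasome genes fell at the high dose of Polygalae Radix and of Guibi-tang. With Polygalae Radix at 30 µg/mL, 31 of 34 genes fell and 0 rose, where 25.6% of all tested genes fell and 22.4% rose. The median log2 fold change was -1.17 over the 34 genes, -1.16 over the core and -1.21 over the cap. With Guibi-tang at 500 µg/mL, 28 fell and 0 rose, where 26.6% of all tested genes fell and 23.6% rose. Its medians were -0.65, -0.60 and -0.76. Calls are by edgeR's quasi-likelihood test with Benjamini-Hochberg adjustment over 19366 genes at 0.05. The median over all tested genes lay within 0.03 of 0 in each of the 7 high dose comparisons. TMM scaling holds that median near 0, so it is no evidence that other genes were unchanged. A change in total RNA would not show in these values.

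**Figure D1:**
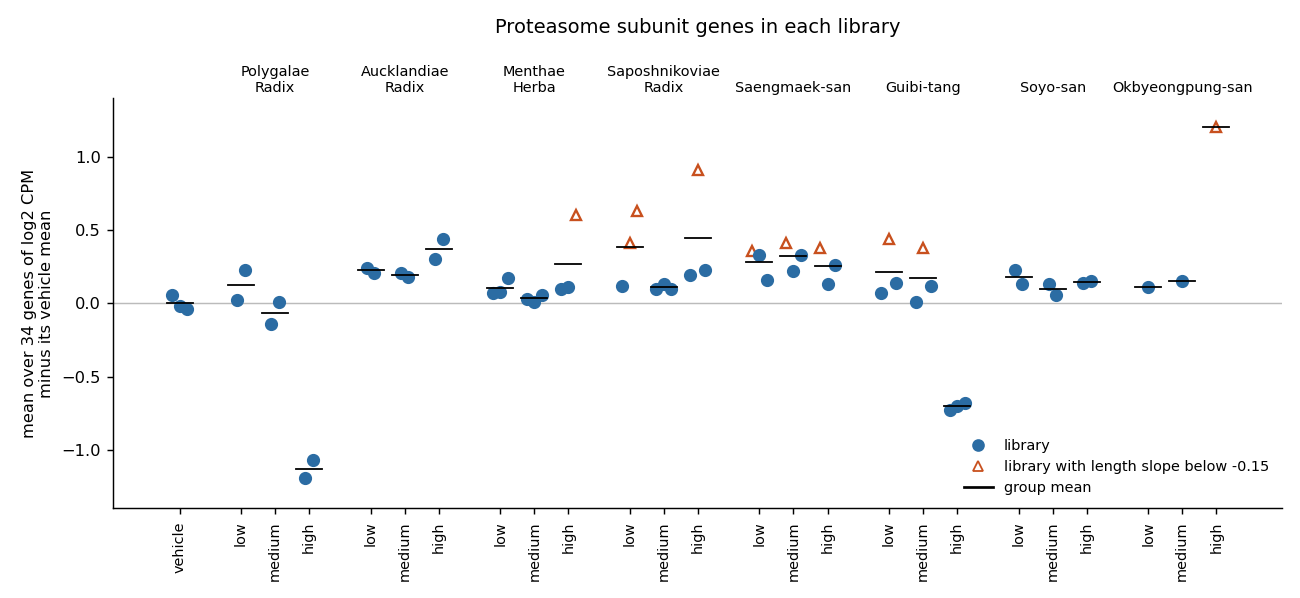
Mean log2 level of the 34 proteasome genes in each of the 60 libraries, as the difference from the vehicle mean (y axis, log2 units), by extract and dose (x axis); bars are group means and triangles are libraries whose length slope lies below -0.15. The Polygalae Radix high libraries lie at -1.19 and -1.07 and the Guibi-tang high libraries between -0.73 and -0.68, while the Okbyeongpung-san high library lies at 1.20.

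Summed over the 34 genes, the level was 4876 ± 149.9 CPM in vehicle (SD, n = 3), 2088 ± 96.55 CPM at high Polygalae Radix (SD, n = 2) and 2758 ± 45.76 CPM at high Guibi-tang (SD, n = 3). In both high Polygalae Radix libraries all 34 genes lay below all 3 vehicle libraries. In the Guibi-tang high libraries 32, 33 and 33 of the 34 did. For all tested genes this was not counted, so nothing particular to the proteasome genes is read from these counts. The shares of all tested genes called lower, 25.6% and 26.6%, come from the test and are another measure. The plot of library means shows these 5 libraries as the lowest of the 60.

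The steepest falls were in PSMD1 and PSMD2, the large scaffold proteins of the cap's base that dock ubiquitin carriers. PSMD2 stood at 873.9, 820.5 and 852.6 CPM in vehicle, at 186.6 and 193.2 CPM with high Polygalae Radix and at 242.4, 267.9 and 268.5 CPM with high Guibi-tang. The groups did not overlap, and each treated library held less than any vehicle library. For PSMD2 the log2 fold change was -2.16 (SE 0.14, edgeR adjusted p = 9.3e-17) with Polygalae Radix, a 4.47-fold lower level, and -1.71 (SE 0.11, edgeR adjusted p = 5.5e-16) with Guibi-tang. PSMD1 stood at 157.8, 163.5 and 173.1 CPM in vehicle, at 40.94 and 37.21 CPM with high Polygalae Radix and at 48.38, 49.01 and 48.77 CPM with high Guibi-tang. The treated libraries again lay apart from vehicle, and close to each other. PSMD1 changed by -2.08 (SE 0.11, edgeR adjusted p = 3e-19) and -1.76 (SE 0.09, edgeR adjusted p = 2.5e-19).

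PSMD4, the cap's intrinsic ubiquitin receptor, fell by 1.50 with Polygalae Radix (edgeR adjusted p = 2.4e-06) and by 1.01 with Guibi-tang (edgeR adjusted p = 9.2e-05) on the log2 scale. The 3 non-ATPase genes of the base thus all fell with both extracts, with medians of -2.08 and -1.71. Among the ATPases, which unfold substrates, 5 of 6 fell with each extract, with medians of -1.28 and -0.92. PSMC3 fell most, by 1.80 and 1.24, and PSMC2 fell by 1.15 (edgeR adjusted p = 5.9e-12) and 0.70 (edgeR adjusted p = 2.7e-08). PSMC6 was the ATPase that did not pass in either comparison. It stood at 72.38, 70.28 and 67.91 CPM in vehicle, at 52.39 and 62.43 CPM with high Polygalae Radix and at 74, 79.6 and 75.15 CPM with high Guibi-tang. The Polygalae Radix libraries lay below vehicle for PSMC6 and the Guibi-tang libraries above it, with log2 fold changes of -0.29 (edgeR adjusted p = 0.054) and 0.12 (edgeR adjusted p = 0.39).

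The lid genes encode the part of the cap that removes ubiquitin. All 8 fell with Polygalae Radix (median -0.92) and 7 of 8 with Guibi-tang (median -0.55). PSMD14, the lid's deubiquitinase, stood at 72.09, 67.32 and 69.82 CPM in vehicle, at 24.81 and 30.89 CPM with high Polygalae Radix and at 45.57, 47.47 and 45.64 CPM with high Guibi-tang. Both treated groups lay below vehicle. The log2 fold changes of PSMD14 were -1.33 (edgeR adjusted p = 4.8e-11) and -0.59 (edgeR adjusted p = 2.6e-05). PSMD12, another lid subunit, had the smallest values of the lid, -0.27 (edgeR adjusted p = 0.0031) with Polygalae Radix and -0.02 (edgeR adjusted p = 0.82) with Guibi-tang. PSMD11 fell by 0.45 and 0.26.

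PSMD5, PSMD9 and PSMD10 encode chaperones that assemble the base and are absent from the finished particle. PSMD10 fell with both extracts, by 1.18 and 0.83. PSMD5 had a log2 fold change of -0.12 (edgeR adjusted p = 0.41) with Polygalae Radix and fell by 0.27 (edgeR adjusted p = 0.034) with Guibi-tang. PSMD9 had values of -0.36 (edgeR adjusted p = 0.24) and -0.32 (edgeR adjusted p = 0.23), neither past the test.

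In the core, all 7 alpha ring genes fell with Polygalae Radix (median -1.04), from -0.84 for PSMA1 to -1.34 for PSMA7. With Guibi-tang 5 of 7 fell (median -0.46), and PSMA2 (-0.20) and PSMA5 (-0.45) did not pass. All 7 beta ring genes fell with Polygalae Radix (median -1.19) and 6 of 7 with Guibi-tang (median -0.72). PSMB3, a structural beta subunit, had the largest fall of the ring in both, 1.90 and 1.17. The catalytic PSMB6 fell by 1.59 (edgeR adjusted p = 3.8e-05) and 0.72 (edgeR adjusted p = 0.019), and PSMB7 by 1.23 (edgeR adjusted p = 7e-05) and 0.80 (edgeR adjusted p = 0.0019).

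PSMB5, the chymotrypsin-like subunit and the main target of bortezomib, stood at 100.5, 90.6 and 84.87 CPM in vehicle and at 44.75 and 51.44 CPM with high Polygalae Radix. It stood at 70.8, 69.69 and 73.19 CPM with high Guibi-tang. Neither treated group overlapped vehicle. PSMB5 fell by 0.94 (SE 0.30, edgeR adjusted p = 0.0089) with Polygalae Radix, a call that was lost without its high replicate 2 (-0.84). The Guibi-tang value of -0.37 (SE 0.26, edgeR adjusted p = 0.24) did not pass. Fitted with only the compared groups it passed at nearly the same size, -0.36 (SE 0.06, edgeR adjusted p = 1.8e-05), and whether PSMB5 changed less than the other beta genes was not tested.

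**Figure D2:**
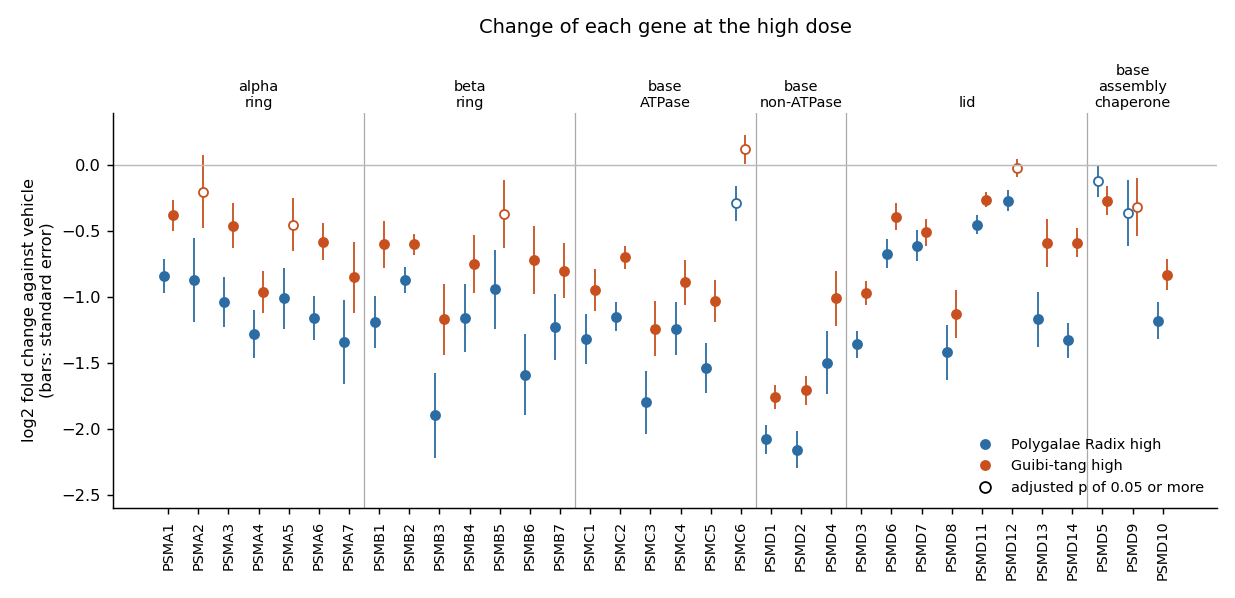
Log2 fold change against vehicle (y axis) of each of the 34 genes (x axis, grouped by role) at high Polygalae Radix (blue) and high Guibi-tang (orange); bars are standard errors and open symbols did not pass at adjusted p under 0.05. PSMD2 and PSMD1 lie lowest at -2.16 and -2.08 for Polygalae Radix, and PSMC6, PSMD5 and PSMD9 are its open symbols.

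Against the low dose of the same extract, within a library set, the same direction held. With Polygalae Radix 32 of 34 genes were lower at the high dose and 0 higher, where 25.2% of all tested genes were lower, and the exceptions were PSMD5 and PSMD9 (median -1.37). With Guibi-tang 33 of 34 were lower and 0 higher, where 27.4% of all tested genes were lower, and the exception was PSMC6 (median -0.97). PSMD1 was lower by 2.05 (SE 0.11, edgeR adjusted p = 2.7e-18) and 1.81 (SE 0.09, edgeR adjusted p = 1.1e-19) on the log2 scale. These 2 comparisons share no library, and over the 34 genes their log2 fold changes correlated with Pearson's r of 0.95 and Spearman's rho of 0.96. Over all 19366 tested genes the values were 0.64 and 0.76, and genes are not independent replicates.

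The medium doses of both extracts lay close to vehicle for most of the genes. With medium Polygalae Radix (6 µg/mL) 2 genes fell, where 2.64% of all tested genes fell. They were PSMD1, at 117.7 and 118.4 CPM, and PSMD2, at 581.9 and 603.9 CPM, both below every vehicle library. The log2 fold changes were -0.48 for PSMD1 (edgeR adjusted p = 0.0021) and -0.52 for PSMD2 (edgeR adjusted p = 0.0098), against -2.08 and -2.16 at the high dose. With medium Guibi-tang (100 µg/mL) PSMD1 stood at 134.3, 143.7 and 143.4 CPM, below vehicle in each library, with a log2 fold change of -0.23 (edgeR adjusted p = 0.12). In that comparison 0 of 34 fell, and PSMA6 (0.47), PSMC2 (0.29) and PSMD12 (0.29) rose, where 3.67% of all tested genes rose.

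**Figure D3:**
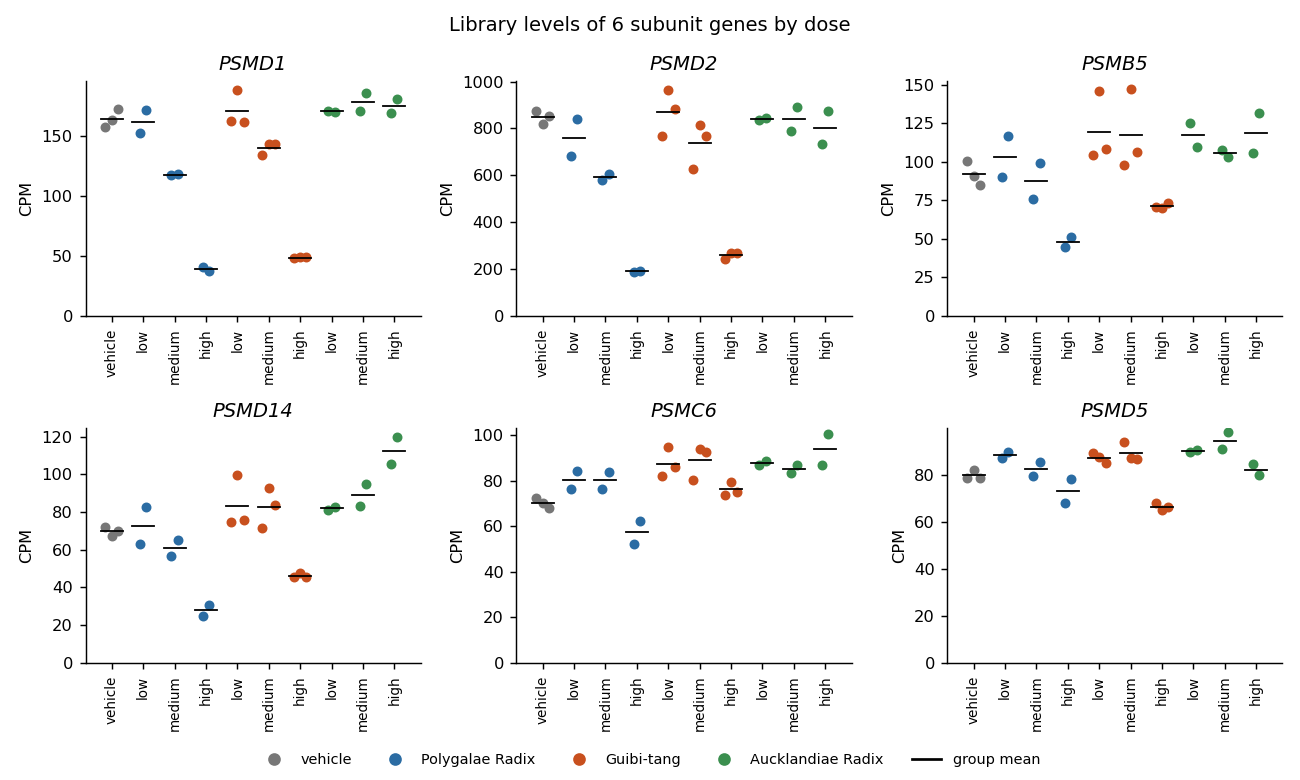
Levels in CPM (y axis) of PSMD1, PSMD2, PSMB5, PSMD14, PSMC6 and PSMD5 in single libraries of vehicle and of the low, medium and high doses of Polygalae Radix, Guibi-tang and Aucklandiae Radix (x axis); each point is a library and each bar a group mean. PSMD1 and PSMD2 step down at medium Polygalae Radix and again at its high dose, PSMD14 is highest at high Aucklandiae Radix, and PSMC6 and PSMD5 move least of the 6 at the high doses of Polygalae Radix and Guibi-tang.

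Over the 7 replicated extracts, 10 of 238 gene and extract pairs passed at the medium dose (8 higher and 2 lower), where 3.14% of all pairs passed. Aucklandiae Radix accounted for 2 of them, PSMA6 (0.56) and PSMD12 (0.35), where 2.33% of all genes rose, and Saengmaek-san for 3 (PSMA6, PSMC2 and PSMD6), where 2.87% rose. At the medium dose 0 of 34 genes passed the edgeR test with Menthae Herba, Saposhnikoviae Radix and Soyo-san (3, 6 and 2 at an unadjusted p under 0.05), where 0.997%, 1.00% and 0.238% of all tested genes passed. At the low dose 16 of 238 passed, all higher, where 3.90% of all pairs passed. Saposhnikoviae Radix accounted for 12 of them, where 9.38% of all genes rose, and its low replicates 2 and 3 were among the 10 libraries with a length slope. Saengmaek-san accounted for 2 (2.77% of all genes rose), and Guibi-tang and Soyo-san for 1 each, PSMD12 in both (1.54% and 0.935%). At the low dose 0 of 34 passed the edgeR test with Polygalae Radix, Aucklandiae Radix and Menthae Herba (5, 8 and 4 at an unadjusted p under 0.05), where 1.11%, 0.728% and 0.496% of all tested genes passed. DESeq2 gave sums of 17 and 25 at the medium and low doses. The medium sum was 4 without vehicle replicate 2 or 3 and 5 without vehicle replicate 1. The low sum was 9, 5 and 3 without vehicle replicates 1, 2 and 3, 5 without low Saposhnikoviae Radix replicate 3 and 30 without its replicate 1.

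Aucklandiae Radix at 160 µg/mL lay above vehicle, whereas its set partner Polygalae Radix at its high dose lay below. The mean of the 34 genes was 0.37 log2 units above vehicle at high Aucklandiae Radix, 0.20 at its medium and 0.22 at its low dose. Most of the other extract and dose groups also had means above vehicle, so the rise is not particular to this dose or extract. Against vehicle 15 of 34 genes rose and 0 fell, where 15.7% of all tested genes rose, with medians of 0.49 in the core and 0.35 in the cap. By role 4 of 7 alpha, 2 of 7 beta, 3 of 6 ATPase and 6 of 8 lid genes rose. Of the other base genes, base chaperones included, 0 of 6 did. PSMA6, a subunit of the core's gate, stood at 252.8 and 258 CPM against 154.3, 144.5 and 135.8 CPM in vehicle, without overlap. PSMA6 rose by 0.82 (SE 0.16, edgeR adjusted p = 7.4e-05). PSMD14 stood at 105.4 and 119.8 CPM, also above every vehicle library, and rose by 0.69 (SE 0.12, edgeR adjusted p = 2.3e-05). PSMC2 rose by 0.45 (edgeR adjusted p = 0.00053) and PSMB7 by 0.65 (edgeR adjusted p = 0.031), whereas PSMB5 (0.37), PSMB6 (0.69) and PSMD4 (0.34) did not pass. Without high replicate 3 of Aucklandiae Radix the count was 6 and PSMC2 did not pass (0.30). PSMB7 did not pass without vehicle replicate 2 (0.60) or 3 (0.63), without either high library (0.72 and 0.57) or without the low-count filter (0.66). With only the compared groups fitted, PSMB5, PSMB6 and PSMD4 passed at the same sizes and the count was 25. In that refit 57.1% of all tested genes passed in either direction, against 32.7% in the model of all groups.

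Against its own low dose, high Aucklandiae Radix had 4 genes higher and 0 lower (median 0.16), where 10.5% of all tested genes were higher. The 4 belong to the lid: PSMD3 (0.34), PSMD11 (0.24), PSMD12 (0.31) and PSMD14 (0.46). That count is near the share of all tested genes, so nothing is read from it about the proteasome or lid genes. PSMD14 averaged 112.6 CPM at the high dose and 81.95 CPM at the low dose (SE of the log2 fold change 0.14, edgeR adjusted p = 0.011). That call was lost without low replicate 2 (0.45), low replicate 3 (0.47) or high replicate 3 (0.36). The count was 1 without high replicate 2, low replicate 2 or low replicate 3. Set directly against high Aucklandiae Radix, high Polygalae Radix had 32 of 34 genes lower and 0 higher, where 25.4% of all tested genes were lower (median -1.63). PSMB3 showed the largest difference, at 31.34 and 35.4 CPM with Polygalae Radix against 157.3 and 185 CPM with Aucklandiae Radix. The PSMB3 groups lay far apart, with a log2 difference of -2.36 (SE 0.34, edgeR adjusted p = 2e-07). By the series description both extracts were used at the concentration that inhibits growth by 20%, and their doses in µg/mL differ.

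Guibi-tang and Saengmaek-san, set partners with the same high dose of 500 µg/mL, differed in all 34 genes. Each was lower with Guibi-tang, where 26.9% of all tested genes were lower (median -0.99). PSMD2 stood at 242.4, 267.9 and 268.5 CPM with Guibi-tang and at 1036, 904.1 and 963.6 CPM with Saengmaek-san. The groups lay far apart, with a log2 difference of -1.90 (SE 0.12, edgeR adjusted p = 2.9e-17). Against vehicle, high Saengmaek-san had 7 genes higher (PSMA1, PSMA3, PSMA6, PSMC6, PSMD10, PSMD12 and PSMD14) and 0 lower, where 8.87% of all tested genes rose. PSMA6 stood at 216, 195.2 and 203.7 CPM, all above vehicle. It rose by 0.50 (SE 0.14, edgeR adjusted p = 0.013), PSMA3 by 0.48 (SE 0.17, edgeR adjusted p = 0.041) and PSMD14 by 0.39 (edgeR adjusted p = 0.014). PSMA6, PSMA3 and PSMD14 did not pass without high replicate 1 (0.46, 0.43 and 0.34). PSMA6 did not pass without vehicle replicate 3 either (0.46), PSMD14 without vehicle replicate 2 (0.36) or high replicate 3 (0.35), and PSMA3 without high replicate 3 (0.45) or any vehicle replicate (0.44 to 0.53). The values of PSMB5 (0.44), PSMB6 (0.43), PSMB7 (0.23), PSMC2 (0.20) and PSMD4 (0.17) did not pass. With only the compared groups fitted PSMB5 (0.43), PSMB6 (0.42) and PSMC2 (0.20) passed and the count was 18. That refit called 32.6% of all tested genes in either direction, against 17.4% in the model of all groups. The count was 2 without Saengmaek-san high replicate 1, which has a length slope of -0.17, 3 without high replicate 3, 4 without vehicle replicate 2 and 3 without vehicle replicate 3. Against its own low dose 0 of 34 Saengmaek-san genes passed the edgeR test (median 0, 1 at an unadjusted p under 0.05, 0 by DESeq2), where 5.70% of all tested genes passed.

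With Saposhnikoviae Radix at 500 µg/mL, 25 of 34 genes rose and 0 fell, where 8.61% of all tested genes rose, and 1 library carried most of that rise. The median was 0.70 in the core and 0.41 in the cap, and 6 of 7 alpha, 7 of 7 beta, 4 of 6 ATPase and 6 of 8 lid genes rose. PSMB5 stood at 107.5, 364.4 and 115.8 CPM in replicates 1, 2 and 3, against 84.87 to 100.5 CPM in vehicle. All 3 lay above vehicle, replicate 2 far above the other two. PSMB5 rose by 1.09 (SE 0.26, edgeR adjusted p = 0.0075), and its value without replicate 2 was 0.27 and did not pass. With only the compared groups fitted 0 of the 34 genes passed, and PSMB5 had 1.13 (edgeR adjusted p = 0.72). In that refit 0 of all 15963 tested genes passed, so its count says nothing particular to the proteasome genes. PSMA2 stood at 84.26, 262.7 and 88.72 CPM and rose by 1.01 (SE 0.28, edgeR adjusted p = 0.018), again with 0.26 and no call without replicate 2. PSMB6 (0.84), PSMB7 (0.73), PSMD14 (0.43) and PSMC2 (0.40) rose and lost the call without it, with values of 0.16, 0.16, 0.35 and 0.32. PSMD4, at 0.44 and not called, was -0.08 without it and passed at 0.64 without replicate 1 or 3. Leaving out a vehicle replicate ended the call of PSMB6 for each of the 3 (0.81 to 0.87), and those of PSMA2 (0.99 and 0.98), PSMB7 (0.69 and 0.71) and PSMD14 (0.40 and 0.43) for replicates 2 and 3.

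The mean of the 34 genes in the Saposhnikoviae Radix high libraries was 0.19, 0.91 and 0.23 log2 units above vehicle, and the length slopes were -0.007, -0.448 and -0.007. Without replicate 2 the count of genes that rose was 3. It was 11 without vehicle replicate 2 and 7 without vehicle replicate 3. Against its own low dose, where low replicates 2 and 3 also had a length slope, 0 of 34 genes passed (median 0.12, 4 at an unadjusted p under 0.05, 0 by DESeq2), and 0.377% of all tested genes passed the edgeR test. Without high replicate 2, 3 genes passed as lower, and without high replicate 1, 1 passed as higher.

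With Menthae Herba at 500 µg/mL 5 genes rose (PSMA1, PSMA4, PSMA6, PSMB1 and PSMC2), where 11.1% of all tested genes rose, and 1 fell, where 11.7% fell. PSMA6 stood at 192.5, 214 and 291.1 CPM in replicates 1, 2 and 3, all above the vehicle libraries, and rose by 0.68 (SE 0.14, edgeR adjusted p = 0.00044). PSMB1, a structural beta subunit, rose by 0.48 (SE 0.17, edgeR adjusted p = 0.044) and PSMC2 by 0.30 (edgeR adjusted p = 0.015). The gene that fell was PSMD11, a lid subunit whose amount is known to limit assembled proteasome in stem cells, which stood at 134.3, 138.4 and 147.9 CPM against 166.6, 163.3 and 175.4 CPM in vehicle. The groups did not overlap, and PSMD11 changed by -0.26 (SE 0.06, edgeR adjusted p = 0.001). That call was lost without the low-count filter (-0.25, edgeR adjusted p = 0.11) and with only the compared groups fitted (-0.26, edgeR adjusted p = 0.11). PSMB1 (0.49 and 0.48) and PSMC2 (0.31 and 0.30) lost theirs in the same refits. With the length slope as a covariate they did too (0.09 and 0.15). Then 4 of the 34 genes rose and 5 fell, where 37.1% of all tested genes passed. PSMB5 (0.60), PSMB6 (0.52), PSMB7 (0.30), PSMD4 (0.29) and PSMD14 (0.18) did not pass. Menthae Herba high replicate 3, with a length slope of -0.345, had a mean of 0.60 log2 units above vehicle for the 34 genes, and replicates 1 and 2 had 0.10 and 0.11. The count was 2 without that library, 2 without vehicle replicate 3 and 11 without high replicate 1. PSMB1 and PSMC2 did not pass without high replicate 3 (0.22 and 0.20) or vehicle replicate 3 (0.47 and 0.27), nor PSMB1 without vehicle replicate 1 (0.51) or 2 (0.44), and PSMB5 passed without high replicate 1 (0.75).

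High against low Menthae Herba gave 0 of 34 genes past the edgeR test (median 0.22, 6 at an unadjusted p under 0.05, 1 by DESeq2), where 15.6% of all tested genes passed, and 3 rose without high replicate 1. Set against high Saposhnikoviae Radix at the same dose, 4 genes were lower with Menthae Herba and 0 higher, where 8.06% of all tested genes were lower: PSMB2 (-0.25), PSMD1 (-0.41), PSMD3 (-0.35) and PSMD11 (-0.37). PSMD1 stood at 152.8, 147.6 and 175.2 CPM with Menthae Herba and at 178.8, 262 and 190.3 CPM with Saposhnikoviae Radix (SE 0.09, edgeR adjusted p = 0.00093), without overlap. The count was 2 without Saposhnikoviae Radix high replicate 2, 7 without its replicate 3 and 12 without Menthae Herba high replicate 3. It was 0 with only the compared groups fitted, where 0 of all 16209 tested genes passed. The count was 2 without the low-count filter (4.49% of all tested genes passed) and 23 with the length slope as a covariate (35.1%).

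Soyo-san at 500 µg/mL had 0 of 34 genes past the edgeR test against vehicle (median 0.16, 4 at an unadjusted p under 0.05, 0 by DESeq2), where 2.91% of all tested genes passed. PSMA6 had its largest value, 0.43. PSMB5 (0.27), PSMB6 (0.28), PSMB7 (0.11), PSMC2 (0.23), PSMD4 (-0.04) and PSMD14 (0.21) did not pass. With only the compared groups fitted 16 of the 34 genes passed, where 27.7% of all tested genes did. PSMB5 (0.27), PSMB6 (0.28), PSMC2 (0.23) and PSMD14 (0.20) were among the 16. Against its own low dose 0 passed as well (median -0.05, 0 at an unadjusted p under 0.05, 0 by DESeq2), where 0.496% of all tested genes passed. Okbyeongpung-san has a single library a dose, and its doses were pooled for a test. In that fit 19 of 34 genes rose and 0 fell (median 0.51), where 5.60% of all tested genes rose. The mean of the 34 genes was 1.20 log2 units above vehicle in the high library and 0.15 and 0.11 in the medium and low libraries. PSMB5 stood at 356.7 CPM and PSMB3 at 447.7 CPM in the high library, whose length slope was -0.396. The count was 0 without that library, 10 without vehicle replicate 3, 12 without vehicle replicate 2 and 29 without the low library.

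**Figure D4:**
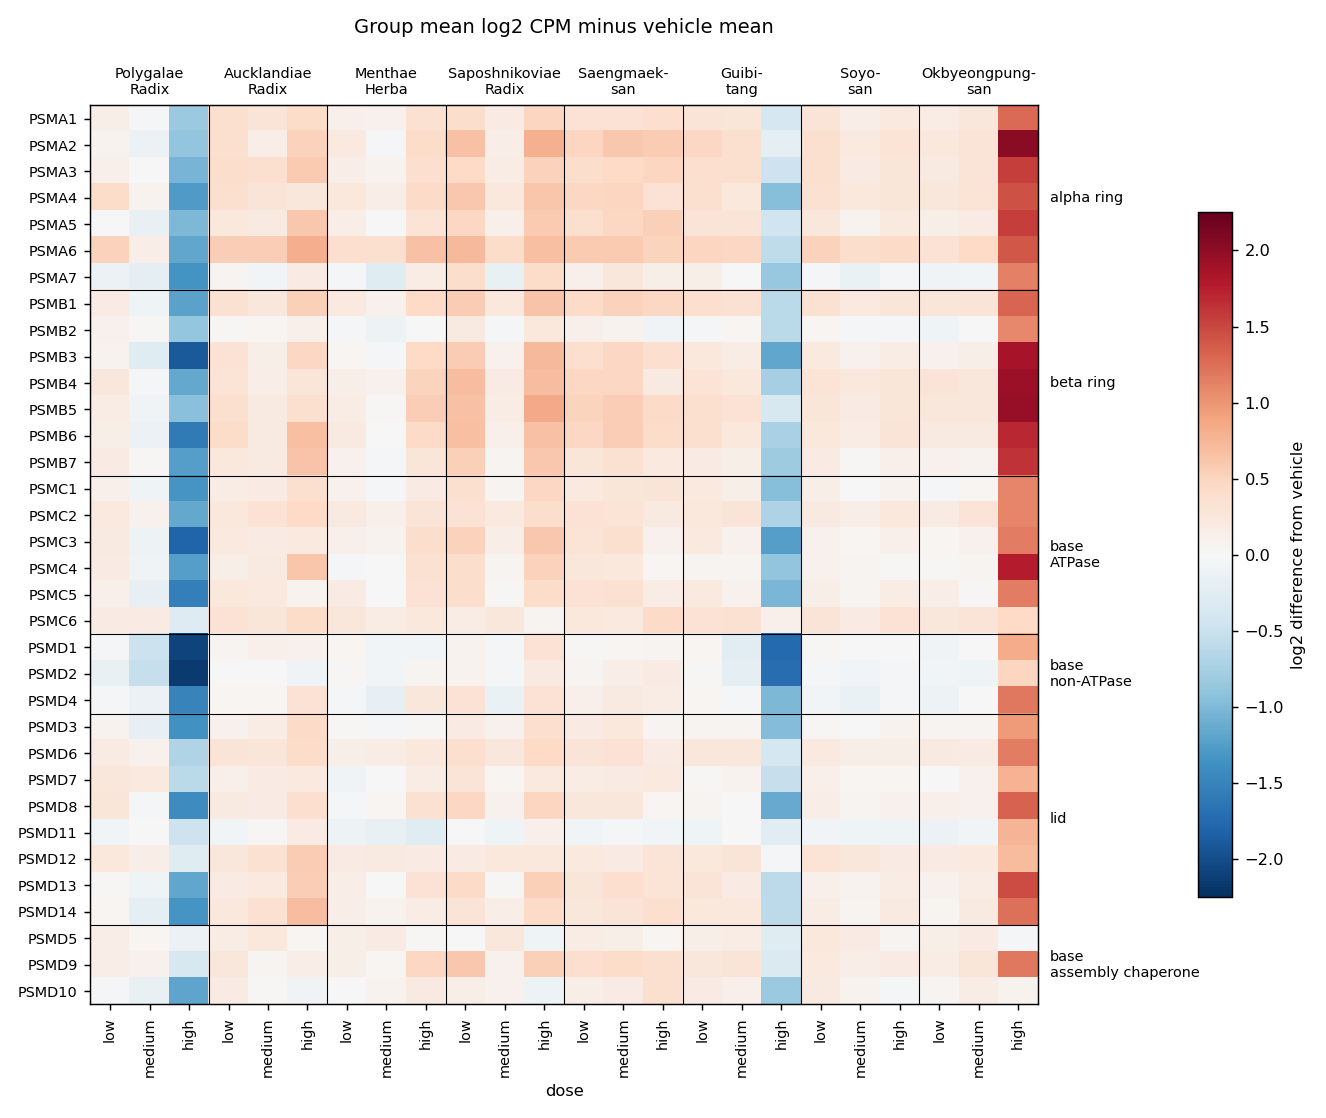
Group mean log2 CPM minus the vehicle mean (colour, log2 units) for the 34 genes (y axis, by role) in the 24 extract and dose groups (x axis). The high doses of Polygalae Radix and Guibi-tang form the columns of low values, with PSMD1 and PSMD2 lowest, and the Okbyeongpung-san high column, a single library, has the highest values.

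Core and cap genes moved together over the 60 libraries. The mean of the 14 core genes correlated with that of the 20 cap genes with r = 0.96 and rho = 0.98, and the 561 pairs of genes had a median r of 0.89, from -0.19 to 0.99. These are descriptions over libraries that share vehicle, sets and depth. PSMD5 followed the other members least, with r = 0.15 against their mean, and PSMC6 was next with 0.44. In the 55 libraries outside the high doses of Polygalae Radix and Guibi-tang the values were -0.58 for PSMD5, 0.04 for PSMC6 and 0.09 for PSMD10.

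The difference between core and cap followed the length slope of the library. With core mean minus cap mean as the measure, r with the slope was -0.91 over 60 libraries and -0.95 in the 55 others. The mean of all 34 genes had an r of -0.82 with the slope, and -0.92 in the 55. The largest core excess, 0.74 log2 units, was in Saposhnikoviae Radix high replicate 2, followed by the Okbyeongpung-san high library at 0.62. The high Polygalae Radix libraries had differences of -0.14 and 0 at slopes of 0.088 and 0.092, and the high Guibi-tang libraries had differences of 0.09 to 0.13 at slopes of 0.065 to 0.079. The part of the slope in the rises was not tested apart from the refits with it as a covariate and without the 10 libraries. In these refits 13 and 10 of the 34 genes passed with high Saposhnikoviae Radix, where 11.4% and 9.52% of all tested genes passed. With the slope as a covariate the median over the 34 genes at the high dose against vehicle was -1.01 for Polygalae Radix (-1.17 without the covariate) and -0.53 for Guibi-tang (-0.65). It moved from 0.32 to -0.03 for Menthae Herba, from 0.39 to 0.22 for Aucklandiae Radix, from 0.54 to 0.19 for Saposhnikoviae Radix, from 0.26 to 0.08 for Saengmaek-san, from 0.16 to 0.04 for Soyo-san and from 0.51 to 0.23 for the pooled Okbyeongpung-san doses. Within sets it moved from -0.97 to -0.63 for Guibi-tang high against low, from -0.99 to -0.56 for Guibi-tang against Saengmaek-san and from 0.22 to -0.13 for Menthae Herba high against low. Without the 10 libraries the medians were 0.12 for Menthae Herba, 0.19 for Saposhnikoviae Radix and 0.13 for Okbyeongpung-san against vehicle, 0 for Menthae Herba and 0.07 for Saposhnikoviae Radix high against low, and -0.10 for Menthae Herba against Saposhnikoviae Radix. Over the 34 genes, the log2 fold change correlated with log2 transcript length with r = 0.11 and rho = 0.26 for Polygalae Radix and r = 0 and rho = 0.21 for Guibi-tang, as a description over genes.

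**Figure D5:**
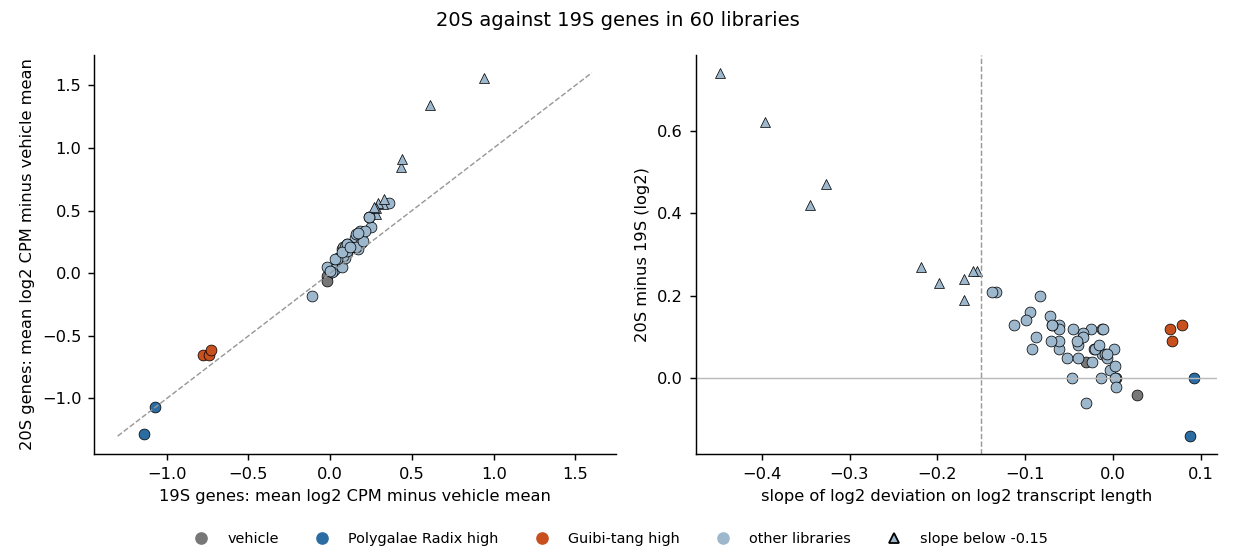
Left, mean log2 difference from vehicle of the 14 core genes (y axis) against that of the 20 cap genes (x axis), 1 point a library, with a dashed line of equality. Right, core minus cap difference (y axis) against the library's transcript-length slope (x axis, log2 units per doubling of length), with a dashed line at -0.15. The high Polygalae Radix and Guibi-tang libraries lie at the low end of both particles on the left, and on the right 4 libraries with slopes from -0.448 to -0.327 have a core excess of 0.42 to 0.74.

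The other genes of the pathway came from a fixed list of 42, of which 40 were tested, and PSMB11 and PSMA8, tissue-restricted subunits, were not. With high Polygalae Radix 27 of these fell and 3 rose, where 25.6% of all tested genes fell and 22.4% rose. With high Guibi-tang 21 fell and 3 rose, where the shares were 26.6% and 23.6%. UBA1, the main enzyme that activates ubiquitin, had the largest fall with both: it averaged 760.4 CPM in vehicle, 123.2 CPM with Polygalae Radix and 116.6 CPM with Guibi-tang. Its log2 fold changes were -2.61 and -2.71. UBB, a polyubiquitin gene, fell by 2.10 and 1.52, and VCP, the segregase that extracts ubiquitinated proteins, by 2.20 and 1.61. Of the ubiquitin genes and E1 enzymes 6 of 6 and 5 of 6 fell, and of the shuttles and segregase genes 7 of 8 and 5 of 8. PSME1 and PSME2, subunits of an alternative activator, fell by 1.78 and 1.23 with Polygalae Radix and by 1.61 and 1.19 with Guibi-tang. The immunoproteasome genes PSMB8 and PSMB9 had values of -0.65 (not called) and -0.84 with Polygalae Radix and fell by 0.99 and 1.31 with Guibi-tang. Of the 6 listed assembly chaperones 2 fell with Polygalae Radix and 0 with Guibi-tang. Among them POMP, which matures the beta ring, fell by 0.80 with Polygalae Radix and had -0.18 with Guibi-tang.

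The genes listed as regulators did not share a direction. NFE2L1 fell by 1.23 (edgeR adjusted p = 6.9e-08) with Polygalae Radix and by 0.87 (edgeR adjusted p = 3.3e-06) with Guibi-tang. AKIRIN2, which carries proteasomes into the nucleus, rose by 0.98 and 0.93, NFE2L2 by 0.78 and 0.38, and DDI2, the protease that activates NFE2L1, by 0.48 and 0.90. NGLY1, which deglycosylates NFE2L1, fell by 0.23 with Polygalae Radix and had -0.18 with Guibi-tang, not called. With the other extracts at the high dose, the counts of the 40 genes that rose and fell were 9 and 3 for Aucklandiae Radix (15.7% and 17.0% of all tested genes), 7 and 1 for Menthae Herba (11.1% and 11.7%), 11 and 1 for Saposhnikoviae Radix (8.61% and 4.05%), 3 and 1 for Saengmaek-san (8.87% and 8.54%) and 0 and 0 for Soyo-san (1.62% and 1.29%). The extremes were UFD1, a VCP cofactor (0.89), and PSMB9 (-1.18) for Aucklandiae Radix, and SEM1, a small cap subunit (0.70), and NFE2L1 (-0.73) for Menthae Herba. They were PSMB8 (0.99) and UBQLN2, a shuttle (-0.45), for Saposhnikoviae Radix, and PSMB8 (0.71) and UBA1 (-0.27) for Saengmaek-san. SEM1, both PSMB8 values and UBQLN2 lost their calls without the high library of their group whose length slope was below -0.15 (0.33, 0.33, 0.66 and -0.21). SEM1 (0.69 to 0.71), UBQLN2 (-0.49 to -0.41) and PSMB8 with Saengmaek-san (0.64 to 0.79) also lost theirs without any vehicle replicate, the last of these without high replicate 3 too (0.67), and PSMB8 with Saposhnikoviae Radix without vehicle replicate 3 (0.91). UBA1 with Saengmaek-san lost its call whichever library of either group was left out (-0.29 to -0.26).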

How the data were processed

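The authors deposited RSEM expected counts for each gene, made from paired reads of 100 bases and not normalized (per the submitters' processing notes and the labels). Those notes list the aligner STAR 2.7.3a, the counter RSEM 1.3.3, the trimmer Trim Galore 0.6.5, FastQC 0.11.9 and the build GRCh38. The annotation release and strand setting are not given in the sources used here. RNA came from directional libraries, with an integrity number above 7, per the labels.

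Expected counts were rounded and fitted with edgeR 4.0.16 in R 4.3.3 (filterByExpr at 10 counts and 15 in total, TMM, 1 quasi-likelihood model of 25 groups and 60 libraries, 35 residual degrees of freedom). Tests were two-sided, and adjusted p is Benjamini-Hochberg over 19366 genes, with a gene called under 0.05. Each SE belongs to a log2 fold change. Depth, 19031094 to 37686975 counts, limits low genes more than these members. The length slope is the regression of each library's log2 CPM (prior count 2) minus the vehicle mean on log2 transcript length (GENCODE), over 10019 genes with mean log2 CPM of at least 3. The model was tested on simulated data.

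The alternatives were RLE size factors, no low-count filter, DESeq2 1.42.0, only the groups compared, a replicate block, the length slope as a covariate, no libraries below the slope threshold, and each library left out. The genes named with values are the catalytic PSMB5, PSMB6 and PSMB7, PSMD4, PSMD14 and PSMC2 in each high dose, the members with the largest rises and falls per comparison, members against the majority, and the extremes of the pathway list. Others were named after their values were seen. The members and lists were chosen with earlier results of these data known. Water extracts and wortmannin are not analysed here.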

Additional observations from a re-analysis of the deposited data

Results flagged for a closer look

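The high doses of 2 extracts from the same library set were compared directly in 3 sets, by edgeR's quasi-likelihood test with Benjamini-Hochberg adjustment, and each comparison had proteasome genes past the test. Polygalae Radix and Aucklandiae Radix differed in 32 of 34 genes, all lower with Polygalae Radix, PSMD5 and PSMD9 being the exceptions. Of all tested genes 49.1% differed in either direction and 25.4% were lower with Polygalae Radix. Guibi-tang and Saengmaek-san differed in 34 genes, all lower with Guibi-tang, where 51.6% of all tested genes differed and 26.9% were lower with Guibi-tang. Menthae Herba and Saposhnikoviae Radix differed in 4 genes, all lower with Menthae Herba, where 14.1% of all tested genes differed and 8.06% were lower. The count of 4 is near these shares, so nothing is read from it about the proteasome genes. That count was 0 with only the compared groups fitted, 2 without the low-count filter and 23 with the length slope as a covariate. Of all tested genes 0%, 4.49% and 35.1% passed in these refits, against 14.1% in the model of all groups.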

How the results depend on the processing

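High Polygalae Radix had between 28 and 33 and high Guibi-tang between 26 and 33 genes called against vehicle under the alternatives run, all lower except 1 with Guibi-tang when only the compared groups were fitted. In the refits below, a percentage in brackets is the share of all tested genes called, which was not counted for the sums. Fitting only the compared groups gave counts against vehicle of 25 for Aucklandiae Radix (57.1%), 1 for Menthae Herba (11.4%) and 0 for Saposhnikoviae Radix (0%). It gave 31 for Okbyeongpung-san (48%), 18 for Saengmaek-san (32.6%) and 16 for Soyo-san (27.7%). In the model of all groups those shares were 32.7%, 22.8%, 12.7%, 11.5%, 17.4% and 2.91%. With only the compared groups the medium and low sums were 67 and 75. Aucklandiae Radix high against low had 11 (45.7%) and Menthae Herba against Saposhnikoviae Radix 0 (0%). Without the low-count filter the counts were 3 for Menthae Herba (8.13%), 14 for Saposhnikoviae Radix (2.18%), 3 for Saengmaek-san (5.1%) and 11 for Okbyeongpung-san (2.29%). They were 3 and 5 for the sums, 1 for Aucklandiae Radix high against low (8.94%) and 2 for the pair (4.49%). Without the 10 libraries below the slope threshold they were 10 for Saposhnikoviae Radix (9.52%), 15 for Saengmaek-san (31%) and 26 for Aucklandiae Radix (50.2%). Soyo-san then had 7 (14.8%), Okbyeongpung-san 4 (4.4%), and Aucklandiae Radix high against low 13 higher and 1 lower (41.5%). The sums were 61 and 58, and 2 and 1 were lower for Menthae Herba (21.1%) and Saengmaek-san (12.8%) high against low. With the length slope as a covariate the counts were 13 for Saposhnikoviae Radix (11.4%) and 13 for Saengmaek-san (10 higher, 3 lower, 35.7%). They were 9 for Menthae Herba (4 higher and 5 lower, against 5 and 1, 37.1%), 4 for Soyo-san (15.2%), 54 and 48 for the sums, and 23 for the pair (35.1%). High against low then gave 14 for Aucklandiae Radix (42%), 8 lower for Menthae Herba (28.1%), 6 for Saposhnikoviae Radix (5.92%) and 4 for Saengmaek-san (22%). DESeq2 gave 1 for Menthae Herba high against low (20.5%) and 17 and 25 for the sums. RLE size factors moved no count by over 1.5 times. The cause of these differences was not tested.

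The sign turned with the covariate for Menthae Herba PSMB5 (-0.03), PSMB6 (-0.13), PSMB7 (-0.21) and PSMD4 (-0.21), Saposhnikoviae Radix PSMD4 (-0.10), Saengmaek-san PSMB7 (-0.07) and PSMD4 (-0.12) and Soyo-san PSMB7 (-0.06). Without the 10 libraries PSMD4 was 0 for Menthae Herba and -0.08 for Saposhnikoviae Radix, and leaving out 1 Saposhnikoviae Radix high library gave -0.08 to 0.64.

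Leaving out 1 library at a time kept the genes and trended dispersion of the whole fit, and a lone library was assumed to vary like the other groups. Shares over all tested genes were not kept for these refits. Counts against vehicle ranged from 28 to 32 for Polygalae Radix, 2 to 11 for Menthae Herba, 6 to 14 for Aucklandiae Radix, 3 to 29 for Saposhnikoviae Radix, 2 to 9 for Saengmaek-san, 26 to 27 for Guibi-tang, 0 to 0 for Soyo-san and 0 to 29 for Okbyeongpung-san. High against low they ranged from 1 to 3 for Aucklandiae Radix, 30 to 32 for Polygalae Radix, 0 to 3 for Menthae Herba and for Saposhnikoviae Radix, 0 to 0 for Saengmaek-san and Soyo-san and 29 to 33 for Guibi-tang. Between set partners they ranged from 32 to 32, 2 to 12 and 32 to 34, and for the medium and low sums from 4 to 11 and 3 to 30.

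Replicate numbers were not treated as pairs in the main fit, because correlations of same-numbered deviations were not all above 0.1. Between high and low doses they ran from -0.88 to 0.90, both in Saposhnikoviae Radix. Deviations from the mean of so few libraries mirror each other, so this check cannot exclude pairing. With a replicate block the counts against vehicle were 15 for Aucklandiae Radix, 32 for Polygalae Radix, 6 for Menthae Herba, 25 for Saposhnikoviae Radix, 9 for Saengmaek-san, 29 for Guibi-tang, 0 for Soyo-san and 23 for Okbyeongpung-san, and 10 and 14 for the sums. For the extracts in that order 32.4%, 47.6%, 22.8%, 11.8%, 17.4%, 50.2%, 3.37% and 12.7% of all tested genes passed. The block moved no count by over 1.5 times.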
